A study of Mus musculus with 6 samples.

Results

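The genes described here are 10 rapidly inducible genes of mouse sensory neurons: the immediate early genes Fos, Fosb, Jun, Junb, Egr1, Ier2, Dusp1 and Nr4a1, and the heat shock genes Hspa1b and Hspb1. They were chosen by name, with earlier results of these data known. Counts set beside those of all genes therefore describe the 10 genes and are no independent support. Of the 18193 genes with a probe set on the array 10 belong to them, with 14 probe sets in all. Each gene is represented by its probe set with the highest mean value, called leading below. RNA came from dorsal root ganglion neurons, the sensory neurons whose cell bodies lie beside the spinal cord, and each of 6 Affymetrix expression arrays measured total RNA of 1 pool of neurons. The L6-R pools (big, and medium to small diameter) and the L3-S pools (big, and medium to small diameter) each held 20 neurons filled with DiI, a membrane dye that travels along axons to the soma. The L3-B pools (big, and medium to small diameter) held 50 control neurons each. The sources used here give no strain, age, DiI site or animal number, and do not say what the codes stand for. With 1 array for each code and size class, a code was compared over its 2 arrays, and nothing in the labels says whether its pools came from different animals, so the p-values reflect no more than the scatter among these arrays, which may be partly technical. Differences from L3-B cannot be told apart from those between DiI and control neurons or between pools of 20 and 50 neurons. Median signals per array ran between 18.8 and 25.2, and 55.3% to 59.5% of the probe sets of an array lay under a signal of 32, near the background of such arrays.

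Immediate early genes are switched on within minutes of a stimulus without new protein synthesis. Kinases of the MAP kinase family and calcium-activated kinases act on transcription factors already bound to their promoters, such as CREB at the cyclic AMP response element (CRE) and serum response factor at the CArG box. Fos, Fosb, Jun and Junb encode subunits of the dimeric factor AP-1, Egr1 a zinc finger factor, Nr4a1 an orphan nuclear receptor, Ier2 a small nuclear protein, and Dusp1 a phosphatase that inactivates MAP kinases. In sensory neurons noxious stimuli and axon injury can induce such genes. Heat shock genes are induced by misfolded protein through heat shock factor, which binds short inverted repeats. Hspa1b encodes an inducible Hsp70 chaperone, and Hspb1 encodes the small heat shock protein Hsp27, which sensory neurons also contain without stress.

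The sequence just upstream of the gene start is shown for the 3 immediate early genes that hold the most matches to the CRE core in that window, and for Hspa1b, which holds a heat shock element. RefSeq (GRCm38.p6) promoter sequences matched 8 of the 10 genes. Egr1 and Ier2 are named only. Capitals mark matches, on either strand, to 4 motifs. These are the CRE core TGACG, the full CRE TGACGTCA (which contains the core on both strands), the heat shock element GAANNTTC and the box TATAAA. Each sequence is the 250 bases before the annotated start, written 5′ to 3′ on the strand of the gene: Fos at chr12:85473640-85473889 (plus strand), Dusp1 at chr17:26508473-26508722 (minus strand), Nr4a1 at chr15:101266596-101266845 (plus strand) and Hspa1b at chr17:34959239-34959488 (minus strand).
Fos: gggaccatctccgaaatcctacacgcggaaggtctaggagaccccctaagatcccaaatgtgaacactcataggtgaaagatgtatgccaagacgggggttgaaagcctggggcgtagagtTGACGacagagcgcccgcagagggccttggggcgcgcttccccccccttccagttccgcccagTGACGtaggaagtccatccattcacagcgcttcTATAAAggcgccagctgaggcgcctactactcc
Dusp1: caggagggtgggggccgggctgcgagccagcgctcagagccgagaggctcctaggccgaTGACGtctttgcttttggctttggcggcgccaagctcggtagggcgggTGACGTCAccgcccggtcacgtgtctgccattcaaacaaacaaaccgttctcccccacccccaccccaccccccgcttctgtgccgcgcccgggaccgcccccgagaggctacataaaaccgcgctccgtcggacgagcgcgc
Nr4a1: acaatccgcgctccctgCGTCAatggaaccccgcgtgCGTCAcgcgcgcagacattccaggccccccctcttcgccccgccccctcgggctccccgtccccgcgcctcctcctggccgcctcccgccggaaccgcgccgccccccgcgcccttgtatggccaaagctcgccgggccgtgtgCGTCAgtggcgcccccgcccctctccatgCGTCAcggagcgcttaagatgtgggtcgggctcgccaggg
Hspa1b: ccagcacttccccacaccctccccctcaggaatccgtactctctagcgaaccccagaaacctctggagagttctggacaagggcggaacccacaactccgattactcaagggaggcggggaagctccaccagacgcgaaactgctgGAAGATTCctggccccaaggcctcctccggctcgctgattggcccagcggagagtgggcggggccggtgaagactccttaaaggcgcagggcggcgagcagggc

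Matches to TGACG, on either strand, were in 6 of the 8 promoters (Fos, Fosb, Junb, Dusp1, Nr4a1 and Hspb1) and in 17.8% of the 32851 mouse promoter windows of the same length. Nr4a1 held 4 such matches, starting 233, 213, 69 and 40 bases before the gene start. Dusp1 held 1 full TGACGTCA, starting 143 bases upstream, a motif found in 1.55% of all windows, and 1 more TGACG at 191 bases. Fos held TGACG at 129 and 66 bases and a TATAAA at 33 bases upstream. GAANNTTC was in 3 of the 8 promoters (Jun, Hspa1b and Hspb1) and in 6.69% of all windows, and Hspb1 had 2 of them, at 117 and 97 bases upstream. TTCNNGAA, the other order of the heat shock repeats, was in 0 of the 8 and in 7.17% of all windows. The AP-1 motif TGANTCA and the CArG box, searched on both strands, were in 0 of the 8 promoters and in 6.75% and 1.47% of all windows. A match is a run of letters and not a measured binding site, and no match says only that the letters are not in this window.

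Across the 6 arrays the highest signal of 8 of the 10 genes, by leading probe set, was in the L6-R medium to small array. The exceptions were Jun and Hspb1. The share of all genes highest in that array is not given here, so the count only describes these 10 genes. Signals are linear values as deposited, already scaled between arrays. Fos, the inducible partner of Jun in AP-1, gave signals of 2387 (big) and 4511 (medium to small) for L6-R, 1387 and 1454 for L3-S, and 1465 and 869.9 for L3-B; later values keep this order of size classes. Both L6-R arrays lay above all 4 others. Egr1 had 571 and 1193 for L6-R, 393 and 430.4 for L3-S, and 500.1 and 169 for L3-B. Its L6-R big array stood only 1.14 times above the L3-B big array, whereas its L6-R medium to small array stood 7.04 times above the L3-B medium to small array.

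Dusp1, Nr4a1 and Ier2 also had both L6-R arrays above all 4 others. The share of all genes with this order is not given here either. Dusp1 had signals of 1514 and 1761 for L6-R, 624 and 585 for L3-S, and 496 and 416 for L3-B. Nr4a1 had 106 and 239.8 for L6-R, 96.5 and 94.7 for L3-S, and 55.8 and 39.8 for L3-B. Its 3 codes did not overlap, but its L6-R big array was 1.10 times the L3-S big array. Ier2 had 77.9 and 160.0 for L6-R, 64.0 and 45.2 for L3-S, and 23.9 and 25.03 for L3-B. Both L3-B values of Ier2 were under 32.

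By their leading probe sets the other AP-1 genes differed less or were dim. Jun had signals of 1637 and 1573.5 for L6-R, 973 and 1163 for L3-S, and 1394 and 1671 for L3-B. Its L3-S arrays were the lowest, and L6-R and L3-B overlapped. The second Jun probe set had 612 and 830 for L6-R, 329 and 293 for L3-S, and 440 and 631 for L3-B. It was thus highest in the L6-R medium to small array. Junb had 48.4 and 85.4 for L6-R, 44.1 and 46.3 for L3-S, and 6.27 and 30.7 for L3-B. Fosb, a partner of Jun proteins like Fos, had 23.5 and 48.8 for L6-R, 15.1 and 23.2 for L3-S, and 23.9 and 21.9 for L3-B. Only 1 of its 6 signals was over 32, so its order among arrays is not resolved.

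**Figure D1:**
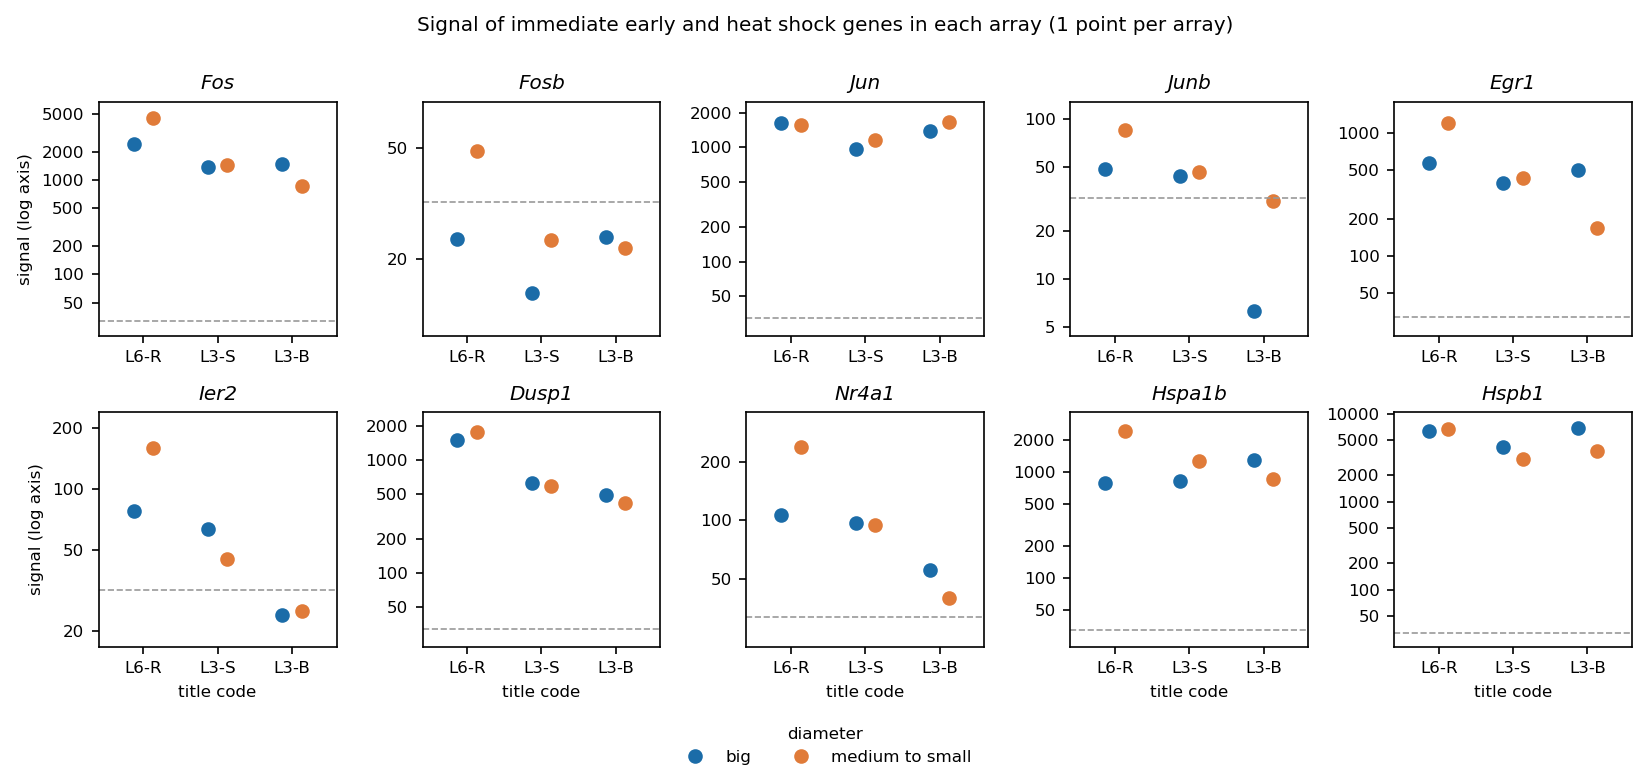
Signal of each gene in each array on a log axis, by title code; 1 point per array, blue for big and orange for medium to small diameter, with a dashed line at a signal of 32. In 8 of the 10 genes the highest point is the orange L6-R one, and in Jun and Hspb1 it is an L3-B point. The share of all genes with this pattern is not given here.

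In the comparison of L6-R with control (L3-B) neurons, 4 of the 10 genes rose: Dusp1, Fos, Ier2 and Nr4a1. Differences are those of log2(signal + 32) from a limma fit of code and size class to all 6 arrays, with Benjamini-Hochberg adjusted p-values across 9097 tested genes (the upper 50% by mean value). In this comparison 7.51% of the genes tested changed, 4.66% upwards and 2.85% downwards. Dusp1 was 1.78 ± 0.23 log2 higher (SE, n = 2 arrays per code, limma adjusted p = 0.00301), or 3.42-fold on the signal + 32 scale. Fos was 1.51 ± 0.36 higher (limma adjusted p = 0.039), Ier2 1.36 ± 0.29 (limma adjusted p = 0.0273) and Nr4a1 1.29 ± 0.31 (limma adjusted p = 0.0447). Ier2 was tested only because of its L6-R arrays: its mean over the other 4 arrays was 6.12 log2, against a limit of 6.41, so its call supports nothing by itself.

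The other 6 genes did not pass the test between these codes. Egr1 stood at 1.39 (95% interval 0.31 to 2.47, limma adjusted p = 0.131), Hspa1b at 0.38 (-0.61 to 1.36), Hspb1 at 0.35 (-0.26 to 0.97) and Jun at 0.07 (-0.44 to 0.58). The second Jun probe set stood at 0.41. Junb at 0.99 and Fosb at 0.29 were too dim to be tested. Both L6-R arrays lay above both L3-B arrays for 5 of the 8 tested genes (Fos, Egr1, Ier2, Dusp1 and Nr4a1), as they did for 25.8% of all genes tested. The place of Ier2 among the 5 is partly set by the filter, which it passed only through its L6-R arrays. The median difference over the 10 genes was 1.14, beside -0.00 over all 18193 genes.

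The 4 genes that rose differed more in the medium to small pair of arrays than in the big pair, which was not tested. Jun (0.23, against -0.08 in the smaller neurons) and Junb (1.07, against 0.90) differed more in the big pair. Both L3-B signals of Junb were under 32, so which of its pairs differed more is not resolved. In the medium to small pair the 10 genes had a median L6-R minus L3-B difference of 1.61 log2 and 9 were higher, and in the big pair the median was 0.44 and 7 were higher. With the medium to small L6-R array left out, only Dusp1 rose (1.59, limma adjusted p = 0.0264), and Fos (0.89), Ier2 (0.89) and Nr4a1 (0.72) were not called (limma adjusted p = 0.343, 0.313 and 0.47). Without the L3-B medium to small array Dusp1 was again the only gene called, and with the L6-R big array left out Egr1 was called too (2.22, limma adjusted p = 0.00664). Dusp1 was called in this comparison in each of the 17 alternatives tried.

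A further comparison set L6-R against L3-S, where all pools carried DiI and held 20 neurons. These comparisons share the L6-R arrays and are not independent of each other. Dusp1 was the 1 gene of the 10 to pass, with a rise of 1.39 ± 0.23 on the log2 scale (SE, n = 2 arrays per code, limma adjusted p = 0.0174), while 3.18% of the genes tested changed, 1.26% upwards and 1.91% downwards. It was higher in both size classes, by 1.24 in the big pair and 1.54 in the medium to small pair. With the medium to small L6-R array left out, its limma adjusted p was 0.2, and without the L6-R big array it was 0.0513.

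All 10 genes were higher in L6-R than in L3-S by the fitted difference, beside 45.3% of all 18193 genes. Of the 8 tested, 7 had both L6-R arrays above both L3-S arrays, beside 25.3% of all genes tested. Ier2, among the 7, was tested only because of its L6-R arrays, so its place there is partly set by the filter. Fos stood at 1.19 (95% interval 0.38 to 2.00, limma adjusted p = 0.133), Egr1 at 0.95 (-0.13 to 2.04), Hspb1 at 0.87 (0.26 to 1.49, limma adjusted p = 0.143) and Ier2 at 0.76 (0.09 to 1.42). Nr4a1 stood at 0.60, Jun at 0.58 (1.12 in its second probe set) and Hspa1b at 0.44. Fosb at 0.39 and Junb at 0.33 were not tested. The tested gene whose arrays overlapped was Hspa1b. The median over the 10 genes was 0.68, and was 0.37 in the big pair and 1.13 in the medium to small pair. Fos and Hspb1 were called when only the 4 arrays of the 2 codes were fitted (limma adjusted p = 0.0201 and 0.0476). That fit left fewer residual degrees of freedom, and the share of all genes called in it is not given here. Over the alternatives tried, 107 to 994 genes were called in this comparison, against 289 in the main fit.

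L3-S neurons did not differ from L3-B neurons in any of the 10 genes past the threshold. The count was 0 of 8 tested by limma, also 0 at an unadjusted p under 0.05, while 1.02% of the genes tested changed, 0.923% upwards and 0.0989% downwards. Both L3-S arrays lay above both L3-B arrays for 3 of the 8 tested genes (Ier2, Dusp1 and Nr4a1), beside 22.4% of the genes tested. Nr4a1 stood at 0.68 (95% interval -0.03 to 1.40, limma adjusted p = 0.523), Ier2 at 0.61 (-0.06 to 1.28), Egr1 at 0.44, Dusp1 at 0.39 and Fos at 0.32. Hspb1 stood at -0.52 (-1.13 to 0.10) and Jun at -0.51 (-1.02 to 0.01). Of the 8 intervals, only that of Dusp1 (-0.14 to 0.91) stayed within 1 log2 of 0, so a difference of that size was not resolved for the other 7. By the leading probe sets Jun, alone of the 10, had both L3-S arrays below both L3-B arrays, and both its probe sets were lower (-0.51 and -0.71). The other Hspb1 probe set also had both L3-S arrays below both L3-B arrays. The median over the 10 genes was 0.35 and turned to -0.31 without the L3-B medium to small array.

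**Figure D2:**
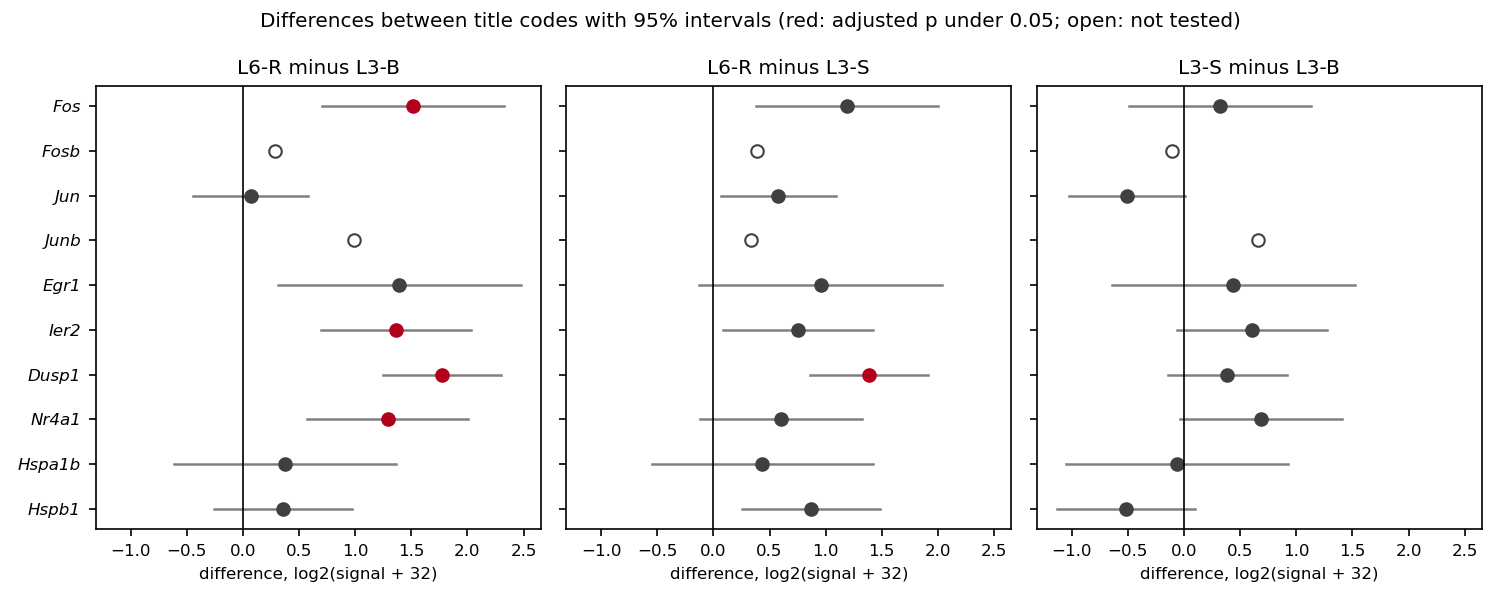
Fitted difference of each gene between title codes in log2(signal + 32); points are differences, lines 95% intervals, red points passed an adjusted p of 0.05 and open points were not tested. Dusp1 lies farthest right in L6-R minus L3-B (1.78) and L6-R minus L3-S (1.39), and no gene is red in L3-S minus L3-B.

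Big neurons were set against medium to small neurons over the 3 codes, and none of the 8 genes tested changed. None of the 9097 genes passed in this comparison (0% called by limma, with 320 genes and 0 of these 8 at an unadjusted p under 0.05). Hspa1b stood at -0.54 ± 0.35 (SE, n = 3 arrays per size class), Hspb1 at 0.42 ± 0.22 and the other tested genes between -0.22 and 0.09. Within single codes the arrays went different ways. In L6-R the big array was below the medium to small array for Fos (-0.91), Egr1 (-1.02), Nr4a1 (-0.97), Ier2 (-0.81) and Hspa1b (-1.58). In L3-B the big array was above it for Fos (0.73), Egr1 (1.40) and Hspa1b (0.59). In L3-S the same differences were small for Fos (-0.07), Egr1 (-0.12) and Nr4a1 (0.02). With 1 array for each combination this could not be tested.

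Neither heat shock gene passed the test in any of the 4 comparisons. Hspb1 had signals of 6435 and 6766 for L6-R, 4253 and 3032 for L3-S, and 6931 and 3829 for L3-B. In this leading probe set L6-R and L3-B overlapped, and the L3-B big array was the highest of the 6. The leading Hspb1 probe set is of a design that can bind more than 1 transcript. The other Hspb1 probe set had 7131 and 6598 for L6-R, 3888 and 3346 for L3-S, and 6097 and 3975 for L3-B. There both L6-R arrays lay above both L3-B arrays, and both L3-S arrays were the lowest. Its L6-R minus L3-S difference was like that of the leading one (0.92 against 0.87). Hspa1b had 784 and 2415 for L6-R, 812 and 1260.4 for L3-S, and 1302 and 857 for L3-B. The L6-R medium to small array was the highest and the L6-R big array the lowest of the 6, so L6-R spanned both other codes.

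All 3 Hspa1b probe sets put the L6-R arrays at both ends. The second Hspa1b probe set had 107 and 789 for L6-R, 170.3 and 289.8 for L3-S, and 219.6 and 279 for L3-B, and the third had 200.1 and 1356 for L6-R, 291 and 453 for L3-S, and 389.7 and 475 for L3-B. Their big minus medium to small differences were -1.18 and -1.14, against -0.54 for the leading one. Hspa1a, a near-identical neighbour of Hspa1b that encodes the same chaperone, had 136 and 835 for L6-R, 221 and 269 for L3-S, and 262 and 249 for L3-B. The transcripts of these genes may share probes, so their signals are not independent and cannot be assigned to 1 gene with certainty.

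**Figure D3:**
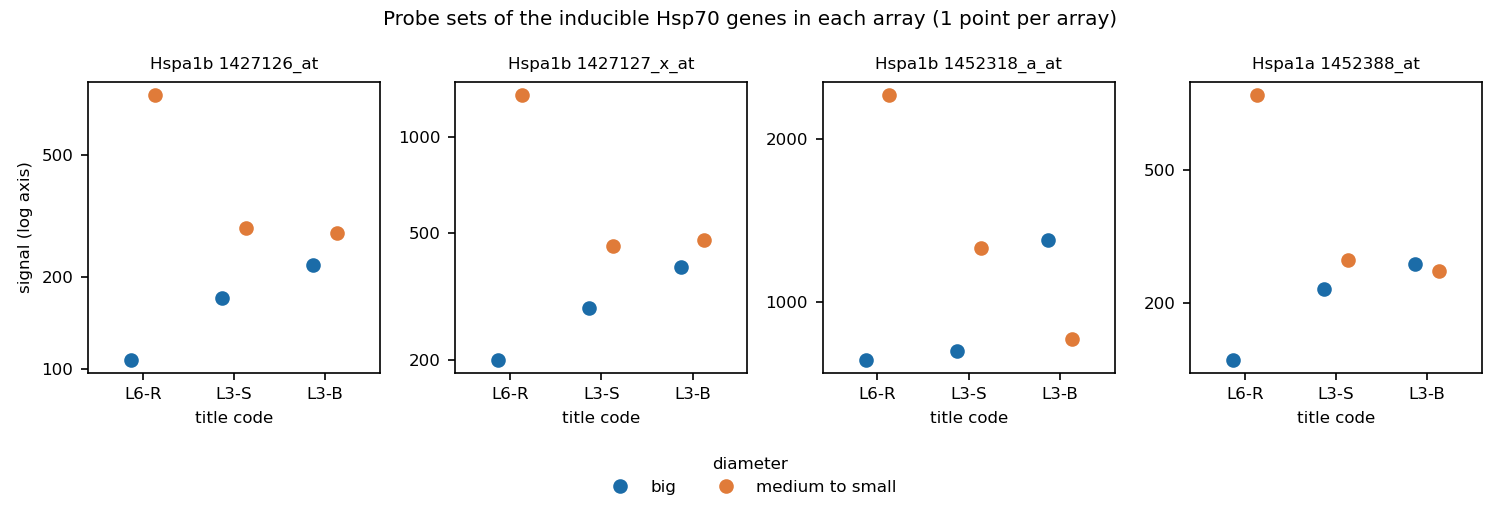
Signal of the 3 Hspa1b probe sets and of the Hspa1a probe set in each array on log axes that differ between panels; 1 point per array, blue for big and orange for medium to small diameter. In every panel the L6-R medium to small point is the highest (2415 in the leading Hspa1b probe set) and the L6-R big point the lowest (784).

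Over the 6 arrays the values of Fos followed those of several other immediate early genes. Pearson's r with Fos was 0.96 for Egr1, 0.93 for Dusp1, 0.93 for Nr4a1, 0.91 for Ier2, 0.81 for Fosb, 0.68 for Hspa1b, 0.65 for Junb, 0.63 for Hspb1 and 0.26 for Jun. Fos and Egr1 ranked the 6 arrays in the same order (Spearman's rho of 1). These values describe 6 arrays that share codes and size classes. An r over 0.9 was reached by 4 of the 9 other genes, and by 85 of the 2439 further tested genes that spanned at least 1 log2 (3.49%). These shares are not alike, since the 9 did not have to be tested or to span 1 log2. Fosb and Junb were not tested, and Fosb and Jun spanned 0.78 and 0.76 log2. Ier2, among the 4, was tested only because of its L6-R arrays. The 5 genes outside the group with the highest r were Efemp1 (0.98), an extracellular matrix protein, Rpl19 (0.98), a ribosomal protein, Pxn (0.98), the focal adhesion protein paxillin, Slc9a3r1 (0.98), a scaffold protein, and Reln (0.97), the secreted protein reelin. Efemp1 and Reln were tested only because of their L6-R arrays, where Fos was also high, so their place here is partly set by the filter. Jun correlated with the others at -0.00 to 0.52.

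Further immediate early genes also rose in L6-R neurons against L3-B neurons, from a list chosen with earlier results of these data known. Of all genes tested, 4.66% rose and 2.85% fell. Of the 19 tested among the 36 listed, 0 fell and 5 rose. They were Atf3, an injury-induced transcription factor (2.73 ± 0.28, limma adjusted p = 0.000909), Socs3, an inhibitor of cytokine signalling (1.63 ± 0.30, limma adjusted p = 0.0136), Btg2, an antiproliferative protein (1.16 ± 0.22, limma adjusted p = 0.0156), Myc (1.01 ± 0.22, limma adjusted p = 0.0314) and Fosl2, another AP-1 subunit (0.92 ± 0.22, limma adjusted p = 0.041), named after its value was seen. Atf3 had signals of 679.5 and 674 for L6-R, 110.0 and 65.9 for L3-S, and 121 and 43.1 for L3-B, and its L6-R arrays lay above all 4 others in both size classes. Socs3 had 652 and 1041 for L6-R, 219 and 295 for L3-S, and 296 and 203 for L3-B. Of the 19, 2 were lower in L6-R than in L3-B, Rgs2 (-1.32, limma adjusted p = 0.104) and Homer1 (-0.08), and neither passed. Rgs2 had signals of 418 and 748 for L6-R, and 2163 and 964 for L3-B. Both were named after their values were seen. Of the 19, 4 (Klf4, Zfp36, Ccn1 and Cebpd) were tested only because of their L6-R arrays, and none of these 4 was called. Over all 36 listed genes, tested or not, 28 were higher in L6-R than in L3-B, with a median of 0.48. Of all 18193 genes, 49.7% were higher. Against L3-S, 2 of the 19 rose, Atf3 (2.59) and Socs3 (1.58, limma adjusted p = 0.0285), beside 1.26% of all genes tested. Over all 36 listed genes 26 were higher, with a median of 0.41, beside 45.3% of all 18193 genes. Zfp36, an RNA-binding protein that destabilises transcripts, stood at 1.21 (limma adjusted p = 0.0875) with a mean of 6.12 log2 outside L6-R, under the limit of 6.41, and Myc at 0.82 (limma adjusted p = 0.103).

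Between L3-S and L3-B, 0 of the 19 further immediate early genes passed (median of all 36 listed 0.12), with Btg2 at 0.71 (limma adjusted p = 0.234), Jund at 0.43, Cebpd at 0.42 and Mcl1 at 0.33. By size class 0 of 19 passed (median of all 36 listed 0.03), with Atf3 at 0.52, Btg2 at -0.31, Ier3 at -0.27 and Mcl1 at 0.16. The other 17 listed genes were too dim to be tested and went both ways. Egr2, a zinc finger factor like Egr1, had signals of 96.1 and 114 for L6-R, 17.9 and 10.7 for L3-S, and 66.2 and 13.8 for L3-B. Arc, a synaptic protein, had 2.08 and 5.90 for L6-R, 54.6 and 5.90 for L3-S, and 82.4 and 53.5 for L3-B, and was lower in L6-R than in L3-B (-1.46). Ptgs2, a prostaglandin synthase, stood at -0.50 in L6-R against L3-B, with all 6 signals under 32. These 3 were chosen after their values were seen.

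Of 10 further phosphatases of the Dusp1 family, 4 were tested, and 1 rose in L6-R against L3-B and 1 fell in L6-R against L3-S. In L6-R against L3-B Dusp16 rose (1.12 ± 0.22, limma adjusted p = 0.0181), while Dusp5 stood at -0.76, Dusp3 at 0.54 and Dusp8 at 0.19. In L6-R against L3-S Dusp5, a nuclear phosphatase of ERK, fell by 1.71 ± 0.33 (SE, n = 2 arrays per code, limma adjusted p = 0.0316). Its signals were 84.2 and 8.33 for L6-R and 205 and 178 for L3-S. Dusp16 stood at 0.47, Dusp8 at -0.46 and Dusp3 at 0.15 there. In L3-S against L3-B 0 of 4 passed, with Dusp5 at 0.94, Dusp16 and Dusp8 at 0.65 each and Dusp3 at 0.39, and by size class 0 of 4 passed, with Dusp5 at 0.72 and Dusp8 at -0.65.

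No further heat shock protein or cochaperone rose in any comparison. Of 24 tested of 25 listed, 0 rose and 1 fell in L6-R against L3-B, with a median of -0.19: Chordc1, an Hsp90 cochaperone, fell by 0.98 ± 0.24 (limma adjusted p = 0.0451). Chordc1 had signals of 1045 and 872 for L6-R and 1711 and 2135 for L3-B. The small heat shock proteins Cryab at -1.26 (limma adjusted p = 0.0857) and Hspb6 at 0.75 (limma adjusted p = 0.0875) and the Hsp110 family member Hspa4l at -0.63 did not pass. Against L3-S 0 of 24 passed (median -0.12), with Chordc1 at -0.76, Cryab and the mitochondrial cochaperonin Hspe1 at -0.74 each and Hspa4l at -0.72. Between L3-S and L3-B 0 of 24 passed (median -0.04), with Hspb6 at 0.97 (limma adjusted p = 0.105), Cryab at -0.52, Hspa4 at -0.50 and Bag3 at -0.37. By size class 0 of 24 passed (median -0.05), with Hspa1a at -0.85 and Fkbp4 at -0.52.

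Of 19 listed kinases and transcription factors that act upstream, 15 were matched and 12 tested, and 0 of 12 passed in any of the 4 comparisons. The medians of the 15 were 0.08 in L6-R against L3-B, 0.07 in L6-R against L3-S, 0.01 in L3-S against L3-B and -0.06 by size class. In L6-R against L3-B the stress-activated kinase Mapk14 (p38) stood at 0.66 (limma adjusted p = 0.127), the ERK-activated kinase Rps6ka3 at -0.70 and Elk4, a partner of serum response factor, at 0.50. Camk4, a calcium-activated kinase of CREB, stood at 1.69 in L6-R against L3-S (limma adjusted p = 0.133) and at -1.61 in L3-S against L3-B, its L3-S big signal being 14.4 and its L3-S medium to small signal 140.3.

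**Figure D4:**
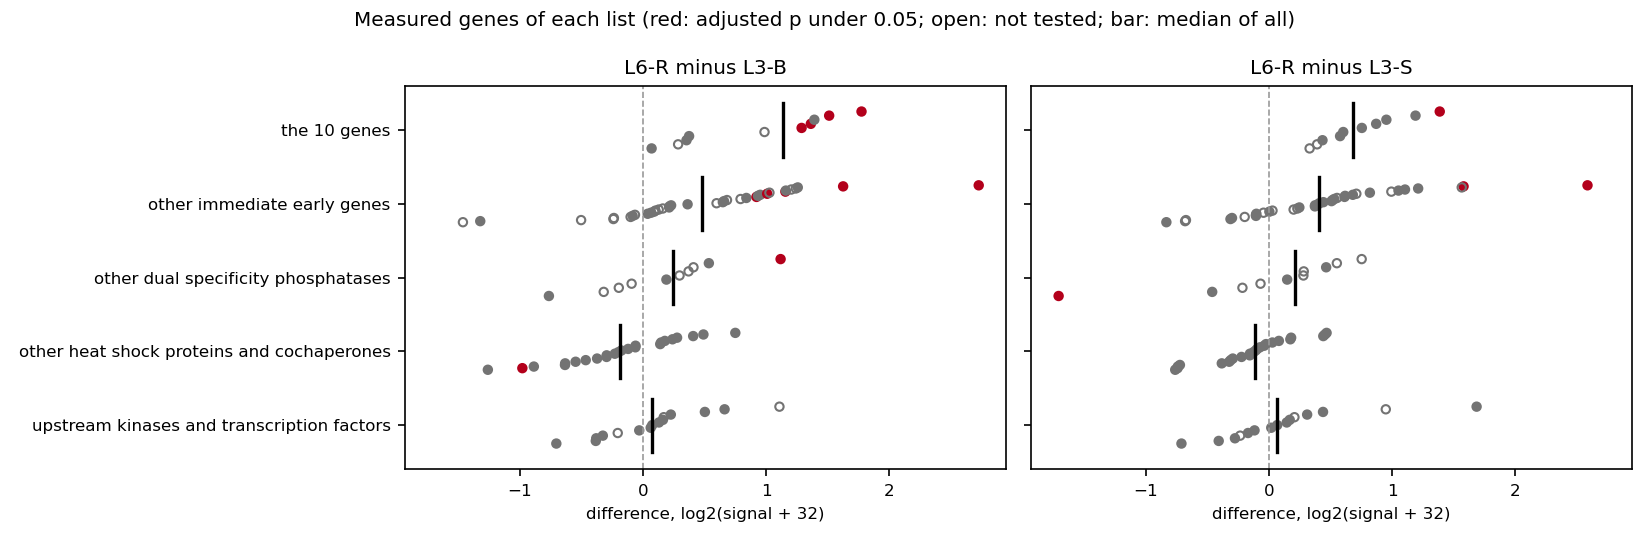
Fitted differences in log2(signal + 32) of the 10 genes and of the measured genes of each further list, in L6-R minus L3-B and L6-R minus L3-S; 1 point per gene, red where the adjusted p was under 0.05, open where not tested, bars at the medians of all points. Further immediate early genes have medians of 0.48 and 0.41, and further heat shock proteins medians of -0.19 and -0.12.

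Markers of other cell types also differed between the arrays. All 8 sensory neuron markers measured were tested, none of them passed between codes, and their summed signal was 45371 to 53585 in L6-R, 39967 to 44844 in L3-S and 42099.5 to 42900.3 in L3-B. Of 11 satellite glia and Schwann cell markers measured, 9 were tested and 4 rose in L6-R against L3-B (Fabp7, Apoe, Mbp and Sox10). Sox10 was tested only because of its L6-R arrays. Of the 11 markers, 9 were higher and 2 lower in this comparison. The lower ones were S100b (-0.29) and Gfap (-0.47, not tested). S100b had signals of 5114 and 4918 for L6-R, and 6832 and 5546 for L3-B. The summed signal of the 11 was 15315 and 21425 for L6-R, 14037 and 17525 for L3-S, and 12921 and 12012 for L3-B. Of 10 connective tissue and vessel markers 5 were tested and 4 rose (Col1a2, Dcn, Rgs5 and Vim), with sums of 2756 and 4538 for L6-R, 2177 and 2701 for L3-S, and 1059 and 532 for L3-B. Of all genes tested, 4.66% rose in L6-R against L3-B. Of 9 blood and immune markers 1 was tested and 6 were under 32 in every array (Ptprc, Cd68, Aif1, Itgam, C1qa and Hba-a1). The L6-R medium to small array, where 8 of the 10 genes were highest, had the highest sum of the glial, the connective tissue and the blood markers. In L6-R against L3-S 0 of 9 glial and 0 of 5 connective tissue markers passed, with medians over all measured markers of 0.33 and 0.48. In L3-S against L3-B, where none of the 10 genes passed, 1 glial marker rose, Apoe (2.14, limma adjusted p = 0.00938), and 1 vessel marker, Rgs5 (3.32, limma adjusted p = 0.00938). Fabp7 at 1.95 (limma adjusted p = 0.0505) and Sox10 at 1.30 (limma adjusted p = 0.147) did not pass there. Rgs5 had signals of 179 and 419.5 for L6-R, 824 and 977 for L3-S, and 88.7 and 40.1 for L3-B, so it was highest in L3-S. The part of these cells in the differences was not tested, and in pooled RNA a larger number of such cells and more RNA per cell cannot be told apart.

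**Figure D5:**
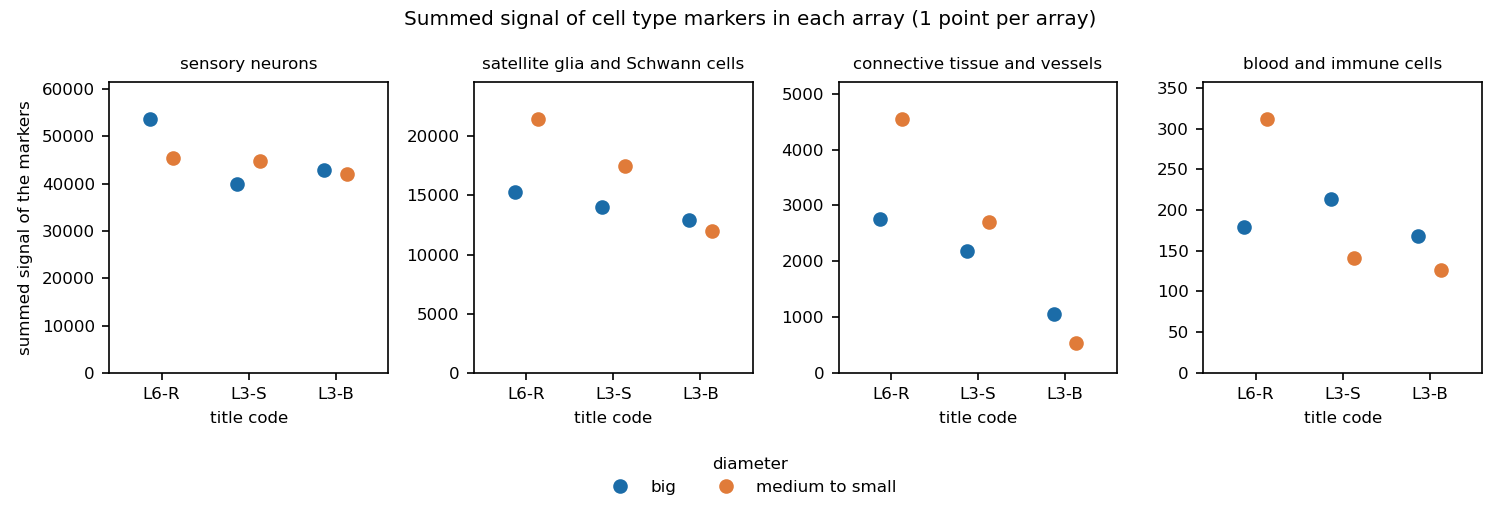
Summed linear signal of the measured markers of 4 cell types in each array; 1 point per array, blue for big and orange for medium to small diameter, each axis from 0. The L6-R medium to small point is the highest for glia (21425), connective tissue (4538) and blood cells (311), and not for sensory neurons.

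The Actb control probe sets gave 3′ to 5′ signal ratios, which are higher for shorter RNA, of 8.31 and 8.42 for L6-R, 5.42 and 12.0 for L3-S, and 13.9 and 3.73 for L3-B. The L3-B medium to small array, with the lowest ratio, had the lowest Fos, Egr1, Dusp1 and Nr4a1 signals, and the highest Jun signal. The L3-B big array, with the highest ratio, had the lowest Ier2 and Junb signals. The other 4 genes were lowest in L3-S or L6-R arrays. A link between ratio and signal was not tested. With the Actb ratio as a covariate, chosen after seeing the data, Fos, Egr1, Ier2, Dusp1 and Nr4a1 were called in L6-R against L3-B. In L6-R against L3-S, Fos, Dusp1 and Hspb1 were called. The added term left fewer residual degrees of freedom, and the share of all genes called in this fit is not given here. Over the alternatives tried, 299 to 1590 genes were called in L6-R against L3-B and 107 to 994 in L6-R against L3-S. The further calls are therefore no added support.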

How the data were processed

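Linear signal intensities of 45037 probe sets and 64 controls on 6 arrays were used as the authors deposited them. Each array's mean without the lowest and highest 2% of values was 150, so they were taken as scaled already. How signals were summarised is not given in the sources used here, and the number of arrays limits the precision. Values were taken as log2(signal + 32), which shrinks differences of low signals. A single gene symbol was paired with 34945 probe sets, several with 932 and none with 9160. R 4.3.3 with limma 3.58.1 fitted title code and size class additively to all 6 arrays (lmFit and eBayes, 2 residual and 6.46 prior degrees of freedom, two-sided). The upper 50% of genes by mean value were tested, with a Benjamini-Hochberg adjusted p threshold of 0.05. Of the 10 genes 8 were tested, and Fosb and Junb were too dim. Genes outside the 10 were named by rule. These were up to 4 tested genes of each further list with the smallest p per comparison, and the 5 genes most like Fos. Fosl2, Rgs2, Homer1, the dim or filter-dependent genes named and the cell type markers come beside these. The 10 genes and the lists were chosen with earlier results of these data known. The alternatives changed the scaling (quantile), the pseudocount (1, or larger than 32), the filter (none, or the upper 25% of genes), the choice of probe sets (their mean, or each tested), the variance model (trend, array weights) or the arrays fitted (only those of the codes compared, or each left out in turn), or added the Actb ratio as a covariate.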

Additional observations from a re-analysis of the deposited data

Results flagged for a closer look

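Some genes moved in opposite ways in the arrays of the size classes or codes, by at least 0.5 log2 each way. With 1 array on each side, these differences were not tested. Hspa1b was lower in the L6-R big array than in the L3-B big array (-0.71) and higher in the L6-R medium to small array than in its L3-B counterpart (1.46). For L3-S against L3-B the same gene differed by -0.66 in the big pair and 0.54 in the medium to small pair. Big minus medium to small, Hspa1b differed by -1.58 in L6-R and -0.61 in L3-S, and by 0.59 in L3-B. The same difference for Fos was -0.91 in L6-R and 0.73 in L3-B. For Egr1 it was -1.02 in L6-R and 1.40 in L3-B.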

How the results depend on the processing

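The counts below are of the 10 genes past the threshold. In L6-R against L3-S the count was 1 (Dusp1). It was 0 with a pseudocount of 1 or no filter, 3 with only the 4 arrays of the codes compared or with the Actb ratio, and 0 to 3 with an array left out. In L6-R against L3-B the count was 4. It was 2 with a pseudocount of 1, the larger pseudocount or the upper 25% of genes, 1 with no filter, and 1 to 5 with an array left out. In L3-S against L3-B and by size class it stayed at 0 in all 17 and 16 alternatives. With an array left out, a code's lone array was assumed to vary like the others, and leaving out an array not compared could also change the fit's spread. The cause of these changes was not tested, except that no filter raises the genes adjusted over to 18193 and the upper 25% leaves out Ier2 and Nr4a1. Over all genes, the number past the threshold ran from 107 to 994 in L6-R against L3-S (289 as reported), 299 to 1590 in L6-R against L3-B (683), and 14 to 512 in L3-S against L3-B (93). No call of a single gene changed sign. Nr4a1 in L6-R against L3-B passed in 8 of the 16 alternatives that tested it, Fos in 12 of 17, Ier2 in 12 of 16, and Dusp1 in 17 of 17 there and in 13 of 17 against L3-S. Of the 3 alternatives that tested Junb, 1 called it in L6-R against L3-B, with probe sets averaged by gene (limma adjusted p = 0.0485). The labels name no animals, so arrays could not be paired by animal. Arrays of the same size class were matched by the size term of the fit.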
